A study of Mus musculus with 11 samples.

Results

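The regions described here are stretches of chromatin that were open in every library of the series and became more open when naive CD8 T cells were activated. They were chosen by measured values. Overlapping peaks (by 1 bp or more) of the 11 libraries were joined, and 23471 of the 111041 merged regions held a peak in all 11. Of these, 2400 had a log2 difference between effector and naive cells of at least 1, and they are called rising regions below. The difference was taken on log2(normalized tag count + 1) and set to a median of 0 across the 32333 regions with a peak in both libraries. That share, 10.2% of the always-open regions, was set by the threshold and is not a result.

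The study measured accessible DNA by ATAC-seq, in which a transposase tags open chromatin, in mouse CD8 T cells from the spleen. All cells carried a YFP reporter of Tcf7, whose product TCF-1 marks naive and memory-like T cells. Naive cells were CD44- and CD62L+, antigen-experienced cells were CD44+ and CD62L+, both were YFP+ and taken straight from the spleen, and effector cells were activated ex vivo for 3 days. These 3 groups have 1 library each. Cells split by YFP at day 3 went back into culture and were split again at day 9. The day 9 groups are high_to_high (high at both days, 2 libraries), low_to_high (low, then high, 3 libraries) and low_to_low (low at both days, 3 libraries). The labels give no age, strain, antigen or separate animals or cultures for the replicates, so p-values measure only the spread between these samples, which may be technical. These are bulk libraries, so fewer cells with an open site and less opening per cell cannot be told apart.

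Resting T cells keep most of their regulatory DNA wrapped in nucleosomes. Signals from the T cell receptor and CD28 act through NFAT, NF-kB and AP-1 factors, which open enhancers of cytokine, receptor and cell-cycle genes. Some of these sites stay accessible after the stimulus has ended, and such sites are often studied as traces of earlier activation in memory cells.

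The libraries held 20.8 to 59.97 M tags and 46454 to 66117 peaks. The share of tags in peaks was 15% in naive, 15.8% in antigen-experienced and 9.08% in effector cells. At day 9 it was 9.01 to 10.2% in YFP-high and 10.4 to 12.5% in YFP-low libraries, without overlap between YFP states. The values are the authors' normalized tag counts, which are tags in the peak window per 10 M tags. The weakest peak of a library lay between 2.25 and 4.32. The windows were 132 bp wide in the naive library, 136 bp in high_to_high replicate 2 and 172 bp in the other libraries. Because the median region called in both was 0.71 lower (log2) in the effector than in the naive library, the rise is relative to the typical region, and without that centring 910 regions reached the threshold. All 8 genes of a CD8 T cell list (such as Cd3e, Cd8a and Lck) held a region in some library, and 3 of them held one in all 11.

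The promoters below belong to genes of T cell function that lay under a rising region, ordered by the size of the rise. Sequences are the 250 bases before the transcript start from RefSeq (GRCm38.p6, the assembly of mm10), 5′ to 3′ on the gene's strand. Capitals mark matches to the motifs described after them. Tnfrsf8 encodes the costimulatory receptor CD30 (chr4:145315165-145315414, minus strand). Ifng encodes interferon gamma (chr10:118440796-118441045, plus strand). Xcl1 encodes a chemokine that attracts dendritic cells (chr1:164935523-164935772, minus strand). Gzmb encodes the killing protease granzyme B (chr14:56262335-56262584, minus strand). Runx1 encodes a lineage transcription factor (chr16:92697330-92697579, minus strand), and Il12rb2 encodes a chain of the interleukin-12 receptor (chr6:67376189-67376438, minus strand).
Tnfrsf8: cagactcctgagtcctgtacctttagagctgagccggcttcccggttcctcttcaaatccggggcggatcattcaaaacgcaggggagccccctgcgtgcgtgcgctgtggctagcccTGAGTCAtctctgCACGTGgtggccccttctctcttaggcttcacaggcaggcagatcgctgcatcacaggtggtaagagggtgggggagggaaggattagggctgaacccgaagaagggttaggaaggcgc
Ifng: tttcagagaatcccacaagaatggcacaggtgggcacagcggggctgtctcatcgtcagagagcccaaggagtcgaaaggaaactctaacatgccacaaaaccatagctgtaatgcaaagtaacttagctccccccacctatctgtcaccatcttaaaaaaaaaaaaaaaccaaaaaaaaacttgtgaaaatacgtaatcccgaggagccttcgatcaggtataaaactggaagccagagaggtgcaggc
Xcl1: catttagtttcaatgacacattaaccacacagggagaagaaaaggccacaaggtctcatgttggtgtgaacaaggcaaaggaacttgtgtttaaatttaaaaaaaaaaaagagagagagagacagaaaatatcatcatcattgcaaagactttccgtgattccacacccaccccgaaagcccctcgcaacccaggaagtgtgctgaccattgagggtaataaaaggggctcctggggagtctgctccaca
Gzmb: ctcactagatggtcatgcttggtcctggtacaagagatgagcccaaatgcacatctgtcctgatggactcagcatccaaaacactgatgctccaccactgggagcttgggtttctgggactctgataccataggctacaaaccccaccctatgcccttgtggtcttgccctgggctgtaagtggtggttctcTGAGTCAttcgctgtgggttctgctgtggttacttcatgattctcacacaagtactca
Runx1: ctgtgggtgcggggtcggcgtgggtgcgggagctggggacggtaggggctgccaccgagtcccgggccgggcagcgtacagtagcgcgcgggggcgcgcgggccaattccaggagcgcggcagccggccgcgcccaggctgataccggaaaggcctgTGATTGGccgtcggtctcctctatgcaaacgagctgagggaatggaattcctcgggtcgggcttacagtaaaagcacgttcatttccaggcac
Il12rb2: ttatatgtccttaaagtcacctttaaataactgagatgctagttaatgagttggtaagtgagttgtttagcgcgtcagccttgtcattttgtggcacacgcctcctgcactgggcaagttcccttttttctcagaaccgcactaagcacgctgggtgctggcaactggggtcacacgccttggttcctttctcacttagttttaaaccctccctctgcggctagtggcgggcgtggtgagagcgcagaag
In these letters the AP-1 heptamer TGANTCA stood 132 to 126 bases before the start of Tnfrsf8 and 58 to 52 bases before that of Gzmb. The E-box CACGTG, which MYC can bind, stood 119 to 114 bases before the start of Tnfrsf8. The CCAAT-box string CCAATCA of NFY stood on the opposite strand of Runx1, 93 to 87 bases before its start. None of the 13 motifs searched was found in the printed letters of Ifng, Xcl1 or Il12rb2, which says only that those strings are not in this window. The rising regions covered the starts of all but Xcl1, where the region ran from 427 to 120 bases before the start.

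At these 6 promoters the naive library, whose value the rule used, was the lowest of the 11. The promoters of Cish and Hk2 were picked in the same way but are not printed. At Cish the naive value (26.7) was also the lowest, whereas at Hk2 high_to_high replicate 1 (22.7) lay below the naive value (24.8). The Tnfrsf8 promoter held a normalized tag count of 3.6 in naive, 20 in antigen-experienced and 22.1 in effector cells. Its day 9 values were 8.13 and 7.75 in high_to_high, 8.63, 8.49 and 7.2 in low_to_high and 7.87, 8.96 and 9.67 in low_to_low libraries, all between the naive and the effector value. The Gzmb promoter held 16.1 in naive, 25.4 in antigen-experienced and 32.7 in effector cells. It held 45.5 and 42.2 in high_to_high, 45.1, 61.8 and 51.4 in low_to_high and 57.7, 67.3 and 63.4 in low_to_low libraries, so that every day 9 value lay above the effector value. The Il12rb2 promoter followed the same order, with 18.8, 26.2 and 27.3 in the 3 reference libraries and 36.7 to 52.7 at day 9. At Ifng and Xcl1 the antigen-experienced library was high. The Ifng promoter held 11.9 in naive, 70.7 in antigen-experienced and 36.2 in effector cells and 24.0 to 39.6 at day 9. The Xcl1 promoter held 3.86, 37.9 and 12.3 and 19.8 to 41.9 at day 9. The Runx1 promoter moved less, with 14, 21.9 and 23.3 in the reference libraries and 14.8 to 25.9 at day 9.

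Over all 2400 rising regions, the median normalized tag count was 7.33 in naive, 12.8 in antigen-experienced and 16.1 in effector cells and 12.3 to 17.3 in the 8 day 9 libraries. The medians of all always-open regions were 28.1, 33.7, 16.3 and 19.8 to 28.3 in the same order. The median rising region stood at percentile 8.30 of the always-open regions in naive and 49.5 in effector cells, 2 values that the rule used. In antigen-experienced cells they stood at percentile 17.7 and at day 9 at percentiles 30.2 to 32.3. The rise itself had quartiles of 1.22, 1.52 and 1.99 and reached 4.33 (log2). Just inside the threshold, the region near Cryba4 and 2 regions with no gene within 100 kb had a rise of 1.001, and just outside it the regions near Cdhr3, Tmem163 and Phb had rises of 0.9999, 0.9999 and 0.9998.

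Relative to the typical region, part of the rise was present in antigen-experienced cells and more of it at day 9. Without centring, day 9 stood only 0.07 ± 0.14 (SD, n = 8, log2) above antigen-experienced cells. On the scale planned for this comparison, with each library centred on its own median, the day 9 difference from naive was 0.88 ± 0.13 (SD, n = 8), against -0.35 ± 0.14 for all always-open regions. Centred in the same way as the rise, a scale added after the data were seen and used from here on, the median difference of the rising regions from naive cells was 0.48 in antigen-experienced cells and 1.13 ± 0.03 (SD, n = 8) at day 9. Over all always-open regions it was -0.03 and -0.10 ± 0.01 (SD, n = 8). In antigen-experienced cells 504 rising regions (21%) stood at least 2-fold above naive, against 3.4% of all always-open regions, and 948 (39.5%) did so in every day 9 library, against 5.4%. These differences share the naive library with the rule and carry its choice. High_to_high replicate 2, whose peak windows were nearly as narrow as the naive ones, gave 1.14 and the other 7 libraries 1.09 to 1.17.

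**Figure D1:**
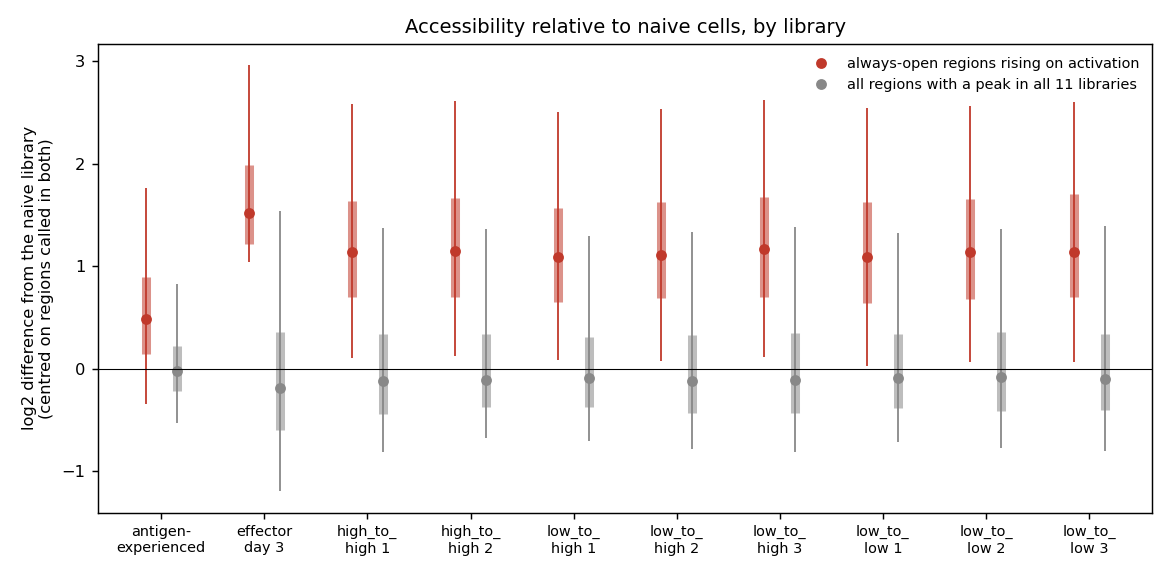
Log2 difference of each library from the naive library (y axis) for the 2400 rising regions (red) and all 23471 always-open regions (grey). Points are medians, thick bars the quartiles and thin lines the 5th to 95th percentile. The red medians were 0.48 in antigen-experienced, 1.52 in effector (the contrast that chose the regions) and 1.09 to 1.17 in day 9 libraries, and the grey medians lay between -0.19 and -0.03.

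The comparison of day 9 with antigen-experienced cells uses neither of the 2 libraries whose values gave the rise. The rule did ask for a peak in each of the libraries compared, so regions without a peak on either side were left out. On the planned scale the rising regions were 0.51 ± 0.13 (SD, n = 8, log2) above antigen-experienced cells at day 9, where all always-open regions stood at -0.18 ± 0.14. On the scale of the rise the values were 0.63 ± 0.03 and -0.06 ± 0.01. In each day 9 library 85.0 to 86.5% of the rising regions and 43.5 to 45.95% of all always-open regions were higher. At least 2-fold higher in all 8 libraries were 362 rising regions (15.1%), against 2.35% of all always-open regions. At least 2-fold lower in all 8 were 2 (0.0833%), against 0.247%. The median grew with the rise, from 0.50 in the 1179 regions with a rise of 1 to 1.5, through 0.63 in 635 regions (1.5 to 2) and 0.88 in 478 regions (2 to 3), to 1.05 in the 108 regions with a rise of at least 3. Across the 2400 regions the rise and this difference correlated at a Pearson r of 0.27 and a Spearman coefficient of 0.25. Over all 23471 always-open regions the coefficients were 0.56 and 0.54, so the trend is not particular to the rising regions. Both are descriptions of regions that share the same libraries. The antigen-experienced group is a single library, so there is no test. Without centring, the difference was 0.07 ± 0.14 in rising regions (single libraries -0.10 to 0.34), against -0.62 ± 0.15 in all always-open regions. The higher day 9 level therefore holds only relative to the typical region. The 2 sets were not matched for level, with antigen-experienced medians of 12.8 and 33.7. The share of tags in peaks was 15.8% in the antigen-experienced and 9.01 to 12.5% in the day 9 libraries, and its part in the difference was not tested.

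**Figure D2:**
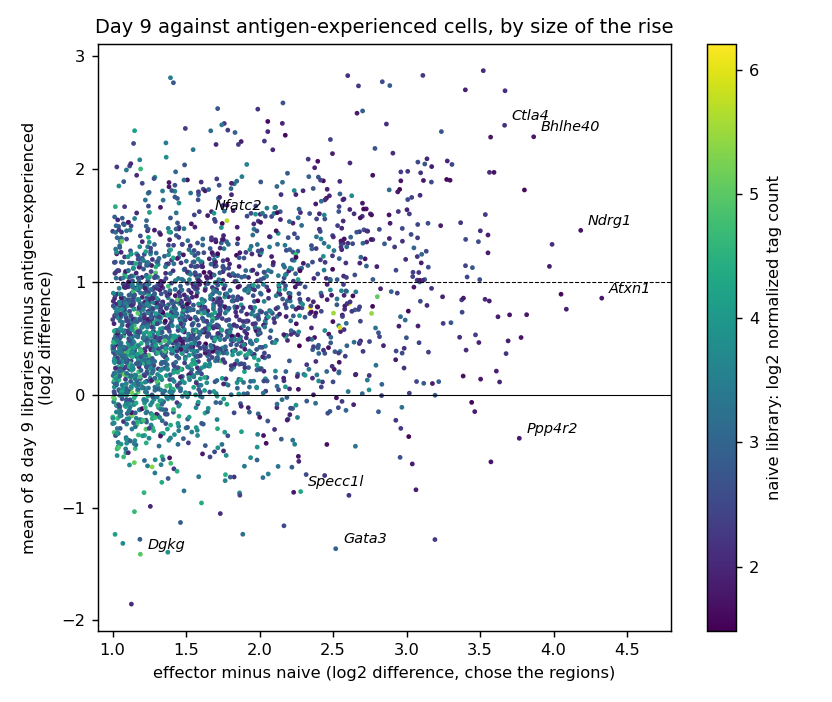
Each point is 1 of the 2400 rising regions, with the rise in effector cells (x axis, log2) against the mean difference of the 8 day 9 libraries from the antigen-experienced library (y axis, log2), coloured by the naive value. The dashed line marks a 2-fold difference. Most points lie above 0, and the region near Gata3 (-1.36) lies far below the one near Ctla4 (2.39).

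Named regions show how far apart the members lay in this comparison. A region 33474 bp from Ctla4, the gene of an inhibitory receptor (chromosome 1, 60875284 to 60875551), held 4.53 in naive, 7.88 in antigen-experienced and 41.9 in effector cells. At day 9 it held 32.3 and 27.9 in high_to_high, 24.7, 28.2 and 29.3 in low_to_high and 34.5, 37.5 and 31.4 in low_to_low libraries, all far above the antigen-experienced value. A region inside Lpp, the gene of a focal adhesion protein (chromosome 16, 24659217 to 24659454), held 4.4, 4.69 and 19 in the reference libraries and 19 to 35.3 at day 9. The region inside Nfatc2 (chromosome 2, 168516753 to 168517103), which encodes NFAT1, held 3.6, 7.46 and 7.8 and 12.3 to 21.3 at day 9, above all 3 reference libraries. A region 55280 bp from Gata3, a T cell lineage factor (chromosome 2, 9801461 to 9801798), went the other way. It held 7.6 in naive, 64.1 in antigen-experienced and 29.1 in effector cells. Its day 9 values of 10.7 to 22.1 lay below the antigen-experienced and the effector value.

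The 2 regions at least 2-fold below antigen-experienced cells in every day 9 library were picked out after their values were seen. One lay inside Golga4, a Golgi protein gene (chromosome 9, 118519144 to 118519392), and held 60.7 in antigen-experienced cells against 4.26 in naive, 6.02 in effector and 7.92 to 15.4 in day 9 libraries. The other (chromosome 10, 119030918 to 119031175) had no gene within 100 kb and held 23.6 in antigen-experienced cells, 5.86 in naive, 17.8 in effector and 5.04 to 7.73 in day 9 libraries. In both, the antigen-experienced library stood above all 10 others.

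Relative to effector cells, the rising regions stood -0.47 ± 0.03 (SD, n = 8) at day 9, against 0.10 ± 0.04 for all always-open regions. At least 2-fold below effector cells in all 8 day 9 libraries were 226 rising regions (9.42%), against 1.15% of all always-open regions. At least 2-fold above effector cells were 16 (0.667%), against 3.8%. Both counts share the effector library with the rule, and nothing is read from them. On the planned scale the difference was -0.55 ± 0.13, and without centring -0.12 ± 0.15.

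The 10 largest rises, with 1 region per gene, show different courses. The largest lay inside Atxn1, the gene of a transcriptional corepressor (chromosome 13, 45649259 to 45649537). It held 3.46 in naive, 46.0 in antigen-experienced and 53.7 in effector cells. Its day 9 values were 51.5 and 46.8 in high_to_high, 52.9, 65.4 and 53.5 in low_to_high and 55.7, 65.5 and 65.3 in low_to_low libraries, none of them below the antigen-experienced value. The regions inside Nek6, a mitotic kinase gene (chromosome 2, 38536484 to 38536697; 4.4 in naive, 50.5 to 71.6 at day 9), and near Ppp4r2, a phosphatase subunit gene (chromosome 6, 100824607 to 100824893; 3.46 in naive, 36.3 to 46.2 at day 9), were also high in every library other than the naive one. Ppp4r2 was highest in antigen-experienced cells, at 77.5.

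At other large rises the day 9 values were lower than the effector value, which the rule used to choose them, so the values are a description. A region 28645 bp from Ndrg1, a stress-responsive gene (chromosome 15, 66998286 to 66998645), held 3.33 in naive, 5.11 in antigen-experienced and 47.1 in effector cells. It held 6.58 and 11.3 in high_to_high, 7.89, 11.4 and 9.84 in low_to_high and 11.2, 11.8 and 15 in low_to_low libraries, closer to naive than to effector cells. The region inside Kdm1a, which encodes the histone demethylase LSD1 (chromosome 4, 136570015 to 136570328), held 3.73, 9.8 and 48.1 in the reference libraries and 7.4 to 22.1 at day 9. The region inside Polk, a translesion polymerase gene (chromosome 13, 96487302 to 96487554), held 3.06, 8.73 and 40.1 and 7.75 to 16.2 at day 9. The region 26814 bp from Rybp, a Polycomb component (chromosome 6, 100314172 to 100314484), held 3.33, 8.1 and 35.3 and 5.06 to 11.5. In all 4 regions the day 9 values stayed below the effector value without overlap.

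Bhlhe40, Bach2 and Galnt3 lay between these courses. The region 21502 bp from Bhlhe40, a regulator of cytokine production (chromosome 6, 108688427 to 108688692), held 3.46, 7.67 and 38.7 in the reference libraries and 23.7 to 35.4 at day 9. The region 58403 bp from Bach2, a repressor of effector differentiation (chromosome 4, 32179784 to 32180010), held 3.46, 15.8 and 37.4 and 13.6 to 25.6 at day 9. The region 23733 bp from Galnt3, which starts O-linked glycosylation (chromosome 2, 66148789 to 66149094), held 3.06, 7.03 and 33.6 and 15.1 to 22.3. Day 9 values overlapped the antigen-experienced value at Bach2 and lay above it at the other 2.

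**Figure D3:**
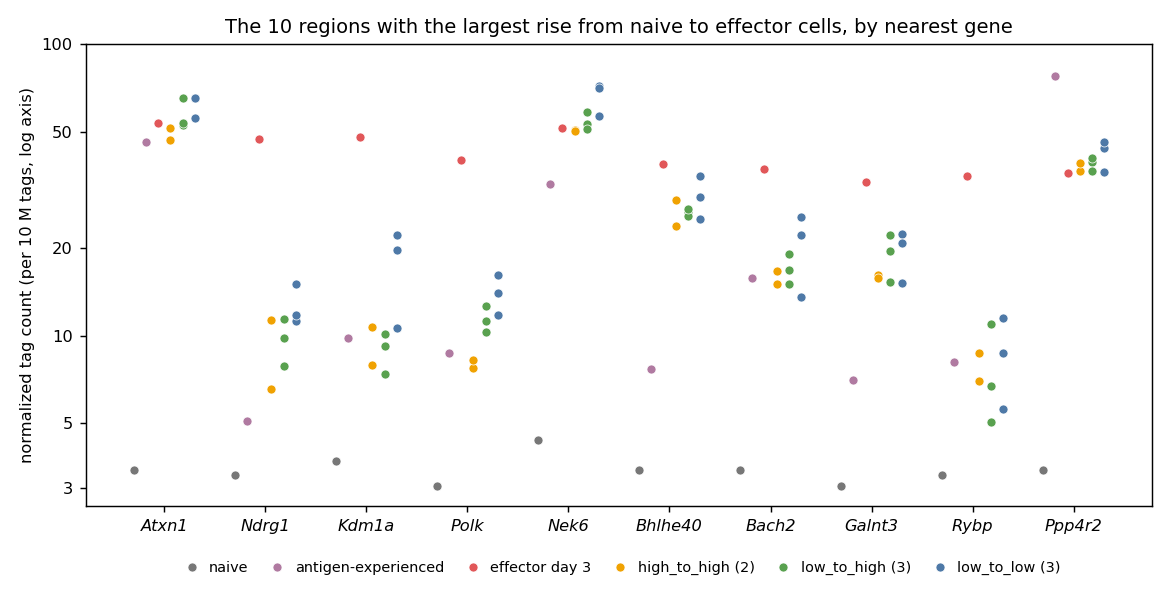
Normalized tag count (y axis, log scale, per 10 M tags) of the 10 regions with the largest rise, by nearest gene, with 1 point per library and colours for the 6 groups. The naive points lie between 3.06 and 4.4 in all 10, the effector points between 33.6 and 53.7, and the day 9 points range from 5.06 near Rybp to 71.6 inside Nek6.

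With 1 region per gene, the highest day 9 levels relative to naive cells were at Nek6 and Atxn1, followed by Myo16, Lilrb4a and C6. A second region of Nek6, 10705 bp from the gene (chromosome 2, 38472949 to 38473158), held 3.6 in naive and 53.4 to 73.5 in day 9 libraries, a mean difference of 4.17. The region inside Myo16, a myosin gene (chromosome 8, 10480923 to 10481145), held 3.06, 29.2 and 13.0 in the reference libraries and 35.6 to 53.2 at day 9. The region inside Lilrb4a, an inhibitory receptor gene (chromosome 10, 51490704 to 51490926), held 4.0, 22.8 and 19.6 and 39.9 to 56.5. The region 12797 bp from C6, a complement gene (chromosome 15, 4816842 to 4817090), held 4.13, 18.1 and 17.3 and 40.3 to 55.1. At Myo16, Lilrb4a and C6 every day 9 value lay above all 3 reference libraries.

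At the other end, 17 of the 2400 regions stood at or below naive cells in all 8 day 9 libraries. The lowest was inside Dgkg, a diacylglycerol kinase gene (chromosome 16, 22526376 to 22526688), at 31.6 in naive, 37.3 in antigen-experienced and 44.4 in effector cells and 4.9 to 16.3 at day 9. The region inside Cpm, a carboxypeptidase gene (chromosome 10, 117651940 to 117652337), held 21.7, 14.1 and 31.5 and 6.23 to 7.4 at day 9. The region 8193 bp from Gm45988 (chromosome 7, 64122401 to 64122681) held 28.4, 15.1 and 39.9 and 8.88 to 15. The regions inside Specc1l, a cytoskeletal gene (chromosome 10, 75222601 to 75222936; 20.1, 25.4, 61.6 and 5.5 to 12.7), and inside Prkcb, a protein kinase C gene (chromosome 7, 122445069 to 122445321; 14.3, 7.67, 20.4 and 5.04 to 9.44), completed the 5 lowest. The deposited day 9 values of all 5 lay below the naive value in every library, and at Prkcb they overlapped the antigen-experienced value.

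By function, the highest share of rising regions was found at effector genes. Of the 53 always-open regions nearest to genes of that list, 18 (34.0%) were rising regions, against 10.2% of all always-open regions. Such shares rest on the values that chose the regions and are given as a description. The 18 lay near 9 genes, namely Ccl3, Ccl4, Ccl5, Fasl, Gzmb, Id2, Ifng, Xcl1 and Zeb2, and their median difference from naive was 0.81 in antigen-experienced cells and 1.51 at day 9. Against antigen-experienced cells the 18 stood at 0.47 at day 9, less than the 0.63 of all rising regions. Ifng had 4 of its 6 always-open regions among them, over 80.1 kb. Besides the promoter, one lay 33738 bp away (chromosome 10, 118406913 to 118407308; 8.39, 16.8 and 43.6 in the reference libraries, 13.4 to 24.0 at day 9). The others lay 34983 bp (118480877 to 118481097; 15.3, 22.6, 28.8 and 27.4 to 45.7) and 40803 bp away (118486697 to 118486975; 10.5, 20, 19.1 and 13.7 to 23.9). At day 9 the region at 34983 bp mostly exceeded the effector value, while the one at 33738 bp stayed below it.

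A region 40288 bp from Xcl1 (chromosome 1, 164975810 to 164976160) held 3.6 in naive, 26.8 in antigen-experienced and 22.5 in effector cells. Its day 9 values of 6.39 to 13.1 lay below the antigen-experienced and the effector value. At the Xcl1 promoter the day 9 values lay between or above the values of those libraries. The region 86942 bp from Fasl, which encodes Fas ligand (chromosome 1, 161693396 to 161693749), held 3.73, 5.11 and 14.9 and 5.34 to 8.84. The region 94331 bp from Id2, a regulator of effector differentiation (chromosome 12, 25190423 to 25190742), held 5.86, 15.8 and 43.3 and is taken up with the day 9 groups. Chemokine regions of the list were picked out after their values were seen. One near Ccl5 (16.5 in naive, 92.9 in antigen-experienced, 28.1 in effector cells, 43.1 to 64.7 at day 9), another near Ccl5 (16.8, 61.6, 30.2 and 24.5 to 45.4) and the one in Ccl4 (7.6, 61.8, 22.9 and 34.4 to 54.1) had their highest value in antigen-experienced cells, and the one near Ccl3 (13.9, 30.7, 33.7 and 19.9 to 37.7) did not. Markers of other cell types differed between the reference libraries in both directions. The B cell list had summed values of 101 in naive, 216 in antigen-experienced and 348 in effector cells, 173 to 244 in low_to_low and 136 to 164 in YFP-high day 9 libraries. Natural killer markers summed to 27.1, 52.6, 97.9, 44.9 to 54.0 and 33.8 to 41.1. The other 4 lists had lower sums in the effector library than in the naive one. CD8 T cell markers summed to 1200, 1128, 347, 414 to 567 and 317 to 508, and CD4 and regulatory T cell markers to 275, 273, 89.7, 183 to 211 and 164 to 200.2. Myeloid markers summed to 101, 97.9, 65.3, 70.1 to 79.9 and 54.7 to 72.2, and erythroid markers to 111, 136, 93, 97.2 to 108 and 70.9 to 93.8. Cd79a, Ncr1 and Tyrobp had no region in any library, 4 rising regions lay near Blk, Ebf1 or Pax5 and 1 near Klrc1, and the part of such cells in the rise was not tested.

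Costimulatory receptors came next, with 5 rising regions of 24 (20.8%). A region 26720 bp from Tnfrsf8 (chromosome 4, 145341884 to 145342454) held 7.46 in naive, 20 in antigen-experienced and 46.3 in effector cells and 9.88 to 18.5 at day 9. The other 3 had small rises from a higher level. They lay in Tnfsf14, which encodes LIGHT (20.1, 42.6 and 27.8 in the reference libraries, 20.2 to 36.3 at day 9), in Tnfrsf9, which encodes 4-1BB (34.0, 60.5, 43.1 and 42.3 to 68.8), and 45703 bp from Icos (20.4, 20.5, 26.7 and 20.5 to 38.2). Among inhibitory receptors, 4 of 28 (14.3%) were rising regions. Besides the one near Ctla4 these were at Entpd1, which encodes CD39 (chromosome 19, 40639909 to 40640270; 5.33, 5.75, 30.9 and 6.2 to 13.0), Tox2 (chromosome 2, 163232134 to 163232403; 6.13, 11.7, 12 and 16.5 to 25.1) and Btla (chromosome 16, 45251883 to 45252233; 10.8, 31.5, 16.0 and 10.3 to 17.6). At day 9 Tox2 exceeded all 3 reference libraries, whereas Entpd1 lay below the effector value and Btla below the antigen-experienced one.

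Interleukin-2 and activation genes had 5 of 40 (12.5%), at Socs2, Egr2, Cish, Il2 and Nr4a3. Inside Socs2, a feedback inhibitor of cytokine signals (chromosome 10, 95416941 to 95417284), the values were 5.73, 13.4 and 20.9 in the reference libraries and 18.5 to 35.0 at day 9. On the promoter of Cish, a related inhibitor, they were 26.7, 36.2, 43.0 and 41.5 to 57.8. The region 47402 bp from Il2 held 12, 18.1, 18.4 and 14.1 to 27.3, and the one 36798 bp from Egr2 held 16.7, 17.7, 29.2 and 15.9 to 28.9, where day 9 and naive values overlapped. NFAT and NF-kB factors had 4 of 27 (14.8%). In contrast to Nfatc2, the region 50827 bp from Nfatc1 (chromosome 18, 80554850 to 80555378) held 8.13, 7.88 and 17.3 and 5.59 to 7.75 at day 9, below the naive value on the deposited scale and 0.09 above it on the scale of the rise. The region 40756 bp from Nfkbiz held 7.46, 22.8, 18.7 and 11 to 17.6. None of the 25 always-open regions of AP-1, BATF and IRF4 genes was a rising region.

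Cell-cycle genes had 7 of 42 (16.7%), 4 of them at Cdk6, which drives entry into S phase. At day 9 these 7 stood 1.25 above antigen-experienced cells at the median. The Cdk6 regions lay at 3301128 to 3301407 on chromosome 5 (5.86, 9.59 and 32.7 in the reference libraries, 19.2 to 25.4 at day 9), 3355798 to 3356126 (9.99, 16.8, 37.7 and 15 to 26.6), 3460948 to 3461247 (14.5, 31.1, 20.2 and 40.5 to 60.5) and 3501778 to 3501997 (6.53, 8.52, 30.7 and 21.8 to 36.1). The first and second stayed below effector cells at day 9, the third exceeded all reference libraries and the fourth overlapped the effector value. The others lay inside Rb1, the retinoblastoma gene (7.73, 20.7, 15.4 and 15.9 to 28), near Ccnd2, which encodes cyclin D2 (6.4, 5.54, 10.6 and 5.42 to 9.34), and near E2f3 (9.73, 9.8, 12.3 and 12.5 to 24.1).

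Genes of naive and memory cells had 11 of 95 (11.6%) and T cell identity genes 6 of 40 (15%). Besides Bach2, these included regions inside Ikzf2, which encodes Helios (5.06, 14.5, 37.4 and 13.5 to 20.9 at day 9), and Foxp1, a quiescence factor (14.3, 21.1, 49.5 and 29.8 to 41.2), and 43698 bp from Myb (6.26, 19.8, 33.4 and 6.0 to 11.2). A region inside Ets1 held 8.53, 20.2, 36.8 and 10.2 to 16.5, and another inside Runx1 held 12.5, 20.2, 30.4 and 23.0 to 34.8. Myb and Ets1 had day 9 values below the antigen-experienced one. Shares near the background were seen for cytokine receptors with 3 of 30 (10%), glycolysis and nutrient transport with 4 of 60 (6.67%) and ribosome biogenesis with 2 of 32 (6.25%). They included a second Il12rb2 region (5.06, 13.8, 30.2 and 21.6 to 27.9), Il18rap (22.5, 52.6, 28.6 and 25.4 to 41.4), Slc7a5, an amino acid transporter (5.73, 9.37, 32.6 and 11.6 to 28.8), Slc2a3, a glucose transporter (16.5, 38.8, 35.1 and 21.1 to 28.1), Hif1a (32.4, 43.9, 47.4 and 31.4 to 49.1), the promoter of hexokinase Hk2 (24.8, 48.4, 35.8 and 22.7 to 41.9) and Rrp1b (4.0, 19.4, 13.6 and 11.3 to 18.9).

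**Figure D4:**
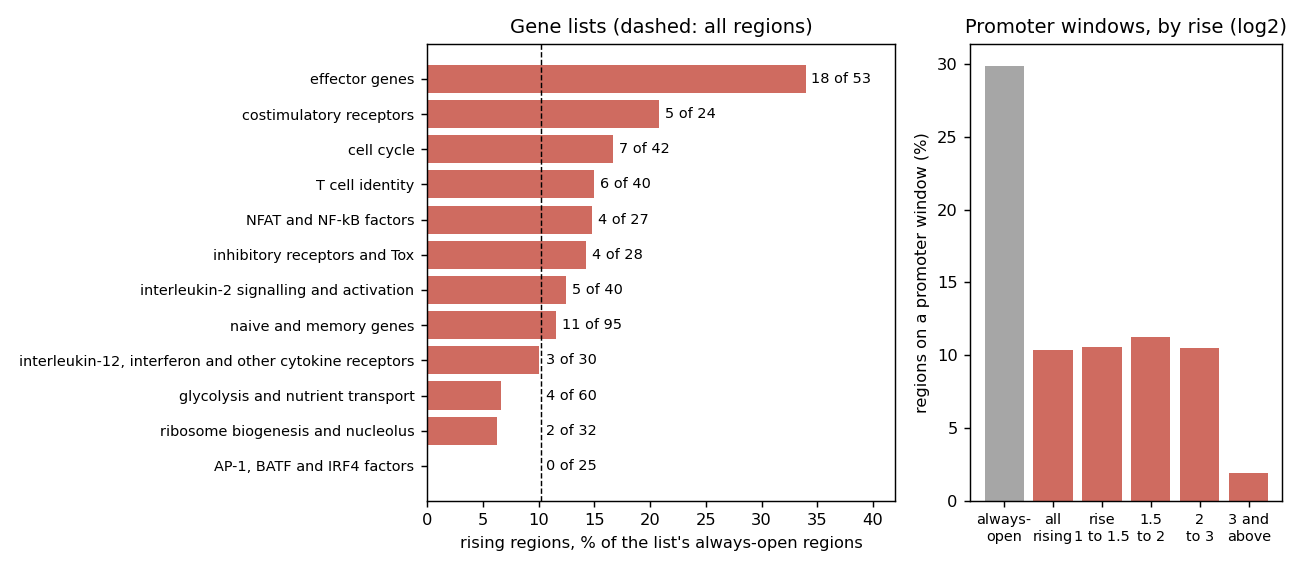
Left, the share of each gene list's always-open regions that were rising regions (bars, with counts), against 10.2% of all always-open regions (dashed). Right, the share of regions on a promoter window for all always-open regions (grey, 29.9%) and for rising regions by the size of the rise (red, 10.3% in all and 1.90% at a rise of at least 3).

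The 2266 rising regions with a gene within 100 kb were spread over 1890 genes, of which 1585 had 1, 248 had 2, 45 had 3, 10 had 4 and 2 had 5. Bcat1, which encodes the cytosolic branched-chain aminotransferase, had 5 of its 6 always-open regions in the set, over 166 kb. Their rises were 1.48 to 3.22, but their day 9 differences from naive were only 0.42 to 1.41. Regions were assigned to the nearest gene, and some of these lay outside Bcat1. The first, 83157 bp away (chromosome 6, 144910263 to 144910678), held 7.86, 15.3 and 49.4 in the reference libraries and 8.88 to 13.5 at day 9. The Bcat1 promoter region (145075760 to 145076183) held 9.99, 10.0, 22.3 and 8.85 to 13.7. Frmd4b also had 5, of 10, with day 9 differences of -0.35 to 1.65. Il23r, the receptor gene for interleukin-23, was the nearest gene of 4 always-open regions. All 4 were in the set, with day 9 differences of 0.92 to 2.46. They lay inside the gene or 7291, 18942 and 23043 bp from it. The one at 23043 bp (chromosome 6, 67399652 to 67399889) held 8.39, 53.7, 21.0 and 33.4 to 46.1. Arhgap26 had 4 of 13, and 3 of them were highest in antigen-experienced cells. The strongest (chromosome 18, 39282118 to 39282387) held 3.33, 88.4, 30.5 and 33.8 to 42.9. Atxn1 had 4 of 9, over 259.5 kb, and Lpp 4 of 10. Neighbouring regions of 1 gene share their surroundings and are not independent.

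Rising regions lay on promoters less often than all always-open regions did. The rule used the naive level, whose median was 7.33 in rising and 28.1 in all always-open regions. The shares below are not matched for that level and are a description. Of the 2334 rising regions on chromosomes covered by the promoter table, 241 (10.3%) overlapped a window of 250 bases before to 50 after a transcript start, against 29.9% of all always-open regions. The share was 10.5, 11.2 and 10.5% at rises of 1 to 1.5, 1.5 to 2 and 2 to 3, and 1.90% (2 of 105) at a rise of at least 3. Inside a gene span lay 57.0%, against 65.3%, and 5.58% had no gene within 100 kb, against 2.57%. The median distance to a transcript start was 16.6 kb, against 7.96 kb. By chromosome the share of rising regions among always-open regions ran from 3.59% on X (18 of 501) and 6.85% on chromosome 17 to 13.2% on chromosome 13.

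The 269 promoter windows under rising regions held the AP-1 heptamer TGANTCA in 10.04% (27 windows), compared with 4.31% of the 8590 windows under all always-open regions and 7.81% of all 32851 windows in the table. The ETS string ACCGGAAG was less common, at 1.12% (3 windows), compared with 6.25 and 2.30%. The GC box GGGCGGG stood in 39.8%, compared with 49.1 and 25.6%, and the NFY string CCAATCA in 8.92%, compared with 13.4 and 7.82%. The E-box CACGTG (12.6, 11.7 and 7.15%) and the CREB octamer TGACGTCA (3.35, 4.17 and 1.79%) were closer to the other always-open windows. RUNX TGTGGTTT (2.23, 1.08 and 1.78%), TCF and LEF CTTTGATC (1.86, 0.675 and 0.938%), T-box AGGTGTGA (1.49, 0.733 and 1.28%) and EGR GCGTGGGCG (1.49, 1.32 and 0.612%) rest on 4 to 6 windows each. NRF1, interferon regulatory factor and CTCF motifs stood in 1.49, 1.12 and 0% of the windows, compared with 2.78, 2.82 and 0.128% under always-open regions and 0.971, 3.44 and 0.0791% of all. Both strands were searched, and matches of different motifs can overlap. The median GC content was 61.3% and the median number of CpG 19, compared with 61.7% and 22 under all always-open regions and 52.7% and 7 in all windows. These shares are descriptions and show no binding, and only 1 rising region in about 10 is covered by them.

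For the day 9 groups limma was run on 34383 regions, those with a peak in each of the 8 libraries, among them all 2400 rising regions, with Benjamini-Hochberg adjustment over all 34383 and an adjusted p under 0.05 as the call. YFP-high and YFP-low libraries differed in few rising regions. In YFP-high libraries 8 (0.333%) were higher and 1 (0.0417%) was lower, against 0.329% and 0.00291% of all regions tested. At an unadjusted p under 0.05 the numbers were 139 higher and 80 lower, together 9.13% of the rising regions against 8.07% of all regions tested. Their median log2 fold change was -0.01, and 90% of them lay between -0.25 and 0.31.

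Dgkg had the largest difference, and its order across the study was unusual for a rising region. It held 16.3 and 15 in high_to_high, 11.7, 8.67 and 9.36 in low_to_high and 5.65, 4.9 and 4.94 in low_to_low libraries, all below the naive value of 31.6, and the 3 day 9 groups did not overlap. YFP-high exceeded YFP-low by 1.28 ± 0.19 on the log2 scale (SE; adjusted p = 0.000348, limma). Inside Mtap, a methionine salvage gene (chromosome 4, 89178017 to 89178283), the YFP-high libraries held 8.13 to 10.8 and the YFP-low libraries 4.18 to 7.09, beside 4.4, 8.1 and 32.9 in the reference libraries. Near Focad (chromosome 4, 88078980 to 88079288) they held 13.3 to 16.8 and 8.6 to 9.88, beside 8.39, 9.16 and 20.8. Near Dapl1 (chromosome 2, 59513600 to 59513883) they held 12.6 to 17.8 and 9.02 to 11.9, beside 9.46, 27.3 and 16.4. In these regions the 5 YFP-high libraries lay above the 3 YFP-low ones.

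The other 4 higher regions overlapped between the YFP states on the deposited scale. Inside Tcf4, an E protein gene (chromosome 18, 69547857 to 69548166), the values were 7.89 to 11.2 in YFP-high and 4.78 to 8.24 in YFP-low libraries, beside 15.2, 7.88 and 26.5. Near Etv6, an ETS repressor gene (chromosome 6, 134273965 to 134274258), they were 11.5 to 20.1 and 6.57 to 11.6, beside 4.0, 5.33 and 17.7. Inside Ubap2 (chromosome 4, 41240992 to 41241301) they were 22.1 to 29.8 and 14.1 to 22.8, beside 8.13, 30.7 and 38.7. Near Zbtb38 (chromosome 9, 96773241 to 96773487) they were 10.4 to 16.8 and 9.02 to 11, beside 20, 16.4 and 38.6. The log2 fold changes of the 7 regions other than Dgkg were 0.67 (Zbtb38) to 0.85 (Mtap), with limma adjusted p from 0.00639 to 0.0471. The single lower region, near Loxl1 (chromosome 9, 58275206 to 58275487), held 19.5 to 26.4 in YFP-high and 35.0 to 38.7 in YFP-low libraries, beside 17.3, 24.3 and 45.6. The share of tags in peaks moved with YFP. When it was added to the model limma called 0 of the 2400 (102 at an unadjusted p under 0.05), and the 8 higher regions went from a median of 0.82 to 0.42, all 8 still positive.

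**Figure D5:**
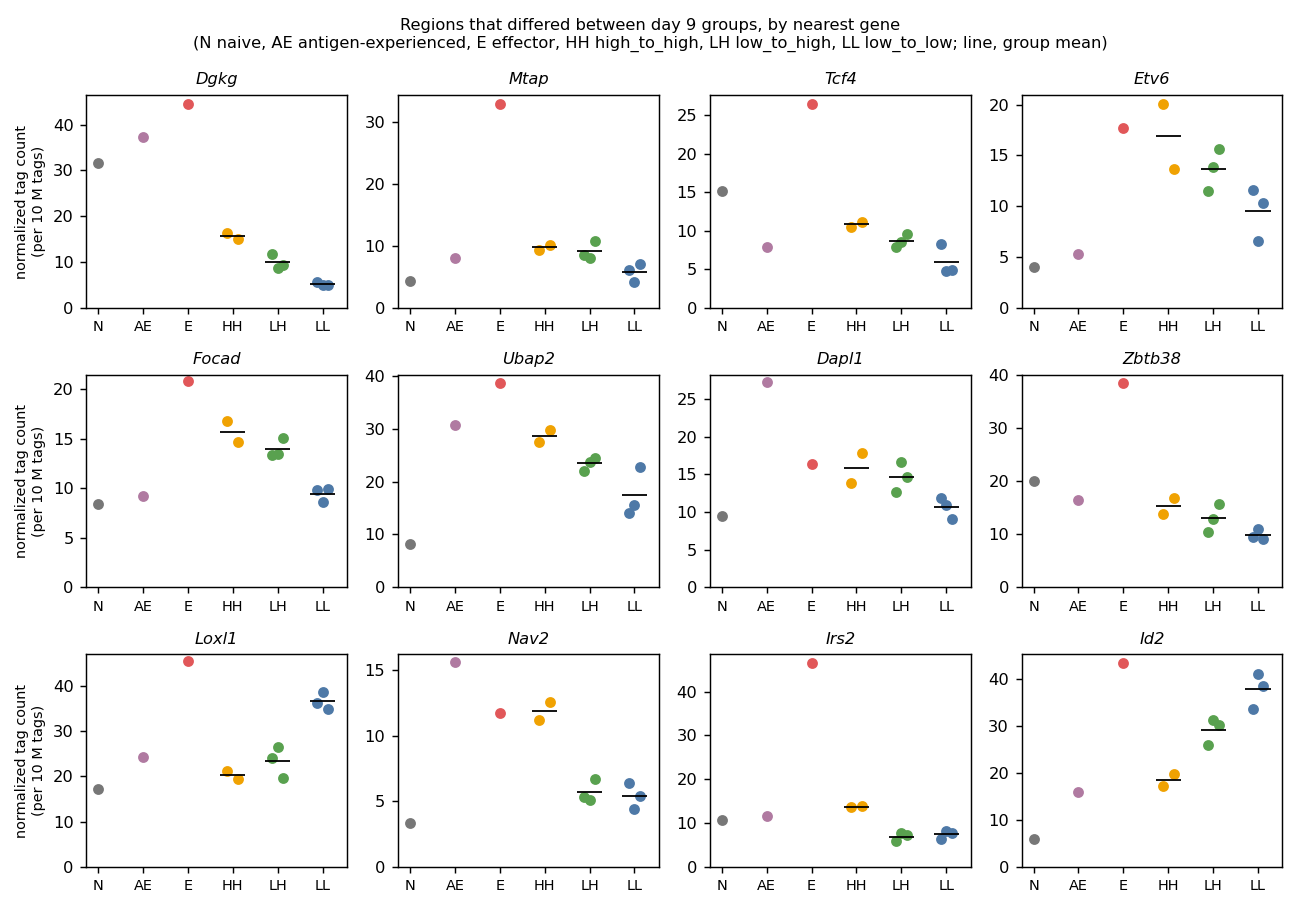
Normalized tag count (y axis, per 10 M tags) of 12 rising regions by nearest gene, with 1 point per library and lines at the means of the day 9 groups. Low_to_low libraries lie below the other day 9 groups in the regions from Dgkg to Zbtb38 by group mean and above them at Loxl1 and Id2, while low_to_high lies near low_to_low at Nav2 and Irs2.

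Between high_to_high and low_to_low libraries limma called 19 rising regions higher (0.792%, against 0.558% of all regions tested) and 1 lower (0.0417%, against 0.0378%), with 177 and 109 at an unadjusted p under 0.05 (11.9%, against 9.92%). The 8 regions higher in YFP-high libraries were among the 19, and the comparisons share libraries. Dgkg was higher by 1.73 ± 0.20 on the log2 scale (SE; adjusted p = 2.19e-05, limma). Inside Nav2 (chromosome 7, 49335151 to 49335371) high_to_high held 11.2 and 12.6, low_to_high 5.3, 5.06 and 6.72 and low_to_low 6.39, 4.42 and 5.37, beside 3.33, 15.6 and 11.7 in the reference libraries (1.31 ± 0.22, limma adjusted p = 0.00119). Inside Irs2, an insulin receptor substrate gene (chromosome 8, 10993873 to 10994131), they held 13.6 and 13.8, 5.8, 7.77 and 7.2, and 6.39, 8.12 and 7.73, beside 10.7, 11.7 and 46.5 (1.10 ± 0.19, limma adjusted p = 0.00184). At both, low_to_high libraries overlapped low_to_low and not high_to_high libraries. Ccdc57 (1.15) and Rps6ka5 (0.99) were also called, as were 7 regions with smaller differences near or in Pde3b, Nfia, Ifi209, Ccdc150, Ptk2, Sox6 and Lmntd1 (0.74 to 0.92).

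The lower region was the one near Id2, with 17.2 and 19.8 in high_to_high, 25.8, 31.2 and 30.2 in low_to_high and 33.6, 41.0 and 38.5 in low_to_low libraries, beside 5.86 in naive and 43.3 in effector cells. The 3 groups did not overlap, and the log2 difference was -0.70 ± 0.13 (SE; adjusted p = 0.00603, limma). Without centring, the typical region stood 0.30 lower in high_to_high libraries. Then 16 rising regions were higher and 395 lower, among 149 and 7261 of all 34383 regions. Of the 20 calls made with centring, 17 were still called, so the balance turned through additional lower calls. That balance holds only relative to the typical region. For YFP-high against YFP-low the split without centring was 6 higher and 110 lower, among 79 and 1943 of all regions, and the typical region stood at -0.22. Adding the in-peak tag share to the model left 0 calls (114 at an unadjusted p under 0.05). The 19 went from a median of 0.97 to 0.76, all still positive in the same libraries that chose them. With 1 library left out in turn, 17 of these calls were followed, and those near Id2, Dapl1 and Zbtb38 were not. Of the 17, those of Dgkg, Ubap2, Nav2 and Irs2 passed limma's test every time. Of the 9 calls between YFP-high and YFP-low, that of Dgkg did.

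Cells that moved from low to high differed from cells that stayed low in 1 rising region, Dgkg (0.99 ± 0.18, SE, limma adjusted p = 0.0213; 0.0417%, against 0.032% of all regions tested higher and 0% lower), with 80 higher and 56 lower at an unadjusted p under 0.05 (5.67%, against 5.56% of all regions tested). The call was lost without low_to_low replicate 2, low_to_low replicate 3, low_to_high replicate 1 or low_to_high replicate 3, the highest limma adjusted p being 0.321. It was also lost without centring (adjusted p = 0.186, limma) and when the in-peak tag share was added to the model (0.67, adjusted p = 0.9997, limma). Same-numbered low_to_low and low_to_high libraries deviated together, and with the replicate number as a block limma called 4 of the 2400 rising regions higher. Over all 34383 regions the same fit called 55 higher and 0 lower. The 4 rising regions were Dgkg (0.99 ± 0.17), 4930467E23Rik (0.79 ± 0.16), Focad (0.69 ± 0.15) and Ubap2 (0.60 ± 0.14), with limma adjusted p from 0.00147 to 0.0388. That fit also blocked the high_to_high libraries, which share only a number with the others. A block fit of the low_to_low and low_to_high groups alone, chosen after seeing the data, called 10 rising regions (7 higher and 3 lower). Over all 34383 regions it called 111 higher and 5 lower. Inside 4930467E23Rik (chromosome 8, 19707131 to 19707407) low_to_high held 10.5, 16.6 and 14.9 and low_to_low 7.13, 12.2 and 7.3, each pair higher in low_to_high.

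Between low_to_high and high_to_high libraries limma called 0 rising regions and 0% of all regions tested in either direction, with 63 rising regions higher and 94 lower at an unadjusted p under 0.05 (6.54%, against 5.09%). The lowest limma adjusted p was 0.246, at Irs2 (-1.02 ± 0.19, SE). The high_to_high group has 2 libraries, and a difference that misses the threshold here is not shown to be absent.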

How the data were processed

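Accessible chromatin was measured in 11 libraries. Per the file headers, the authors called peaks in each library with HOMER 4.10 (false discovery rate 0.001, 4-fold over the local 10 kb, local p 1e-04) and deposited a signal per peak, the normalized tag count per 10 M tags. Bowtie2, DESeq2, HOMER and the build mm10 are listed, without roles, in the submitters' processing notes. Peaks were merged at an overlap of at least 1 bp (Python 3.11.15, pandas 2.3.3, numpy 2.4.6, checked with bedtools 2.31.1), and the strongest peak of a library gave its value. Peaks on Y and unplaced sequences, at most 0.104% of a library, were left out. A region took the nearest protein-coding gene within 100 kb. Values were log2(signal + 1), centred on each library's median across regions with a peak in each of the 8 day 9 libraries, and tested with limma 3.58.1 in R 4.3.3, with all 8 libraries in 1 fit and no block, after testing on simulated data. Same-numbered low_to_low and low_to_high libraries deviated together (correlations 0.298, 0.136 and 0.161), so their numbers were taken to pair them. Named regions were the 10 largest rises, up to 4 per gene list, up to 10 called per day 9 comparison (with fewer than 3 called, the 3 of lowest p), up to 8 genes with most regions, the 5 highest and 5 lowest at day 9, those at the threshold and up to 8 promoters. The regions and gene lists were chosen with earlier results of these data known. Alternatives were another pseudocount, other centring, cyclic loess, level filters, 1 library left out, the replicate block and a covariate.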

Additional observations from a re-analysis of the deposited data

Results flagged for a closer look

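Among 114 named regions, 2 had 1 of the 5 YFP-high libraries far from the other 4, where chance alone gives about 1 in 20. Inside Runx1 (chromosome 16, start 92620838), low_to_high replicate 2 held a normalized tag count of 28.4, above the other YFP-high libraries at 23.0 to 23.8. Inside Arhgap26 (chromosome 18, start 39140603), low_to_high replicate 3 held 17.0, below the others at 21.1 to 22.4.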

How the results depend on the processing

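With a pseudocount of 5 the rule gave 1579 regions, and without centring 910. On the deposited scale limma called 116 rising regions between YFP-high and YFP-low, 411 between high_to_high and low_to_low and 0 between low_to_high and low_to_low. A filter on a mean normalized tag count of at least 10 also left 0 there. It took out the only called region, Dgkg (day 9 mean 9.565), before the test, so that 0 says nothing about the call. With the in-peak tag share added as a covariate, chosen after seeing the data, limma called 0 in these 3 comparisons, with 102, 114 and 89 at an unadjusted p under 0.05. Leaving out 1 library gave 1 to 14 calls (1 without low_to_low replicate 2), 7 to 30 (7 without low_to_low replicate 2), 0 to 4, and for low_to_high against high_to_high 0 to 1 (1 without high_to_high replicate 1). The cause was not tested.

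With the replicate number as a block limma called 17 rising regions (15 higher and 2 lower) between YFP-high and YFP-low, 37 (34 and 3) between high_to_high and low_to_low, 4 between low_to_high and low_to_low and 2 lower (Irs2 and Nav2) between low_to_high and high_to_high. Over all 34383 regions the same fits called 207 higher and 6 lower, 330 and 44, 55 and 0, and 0 and 4. With the low_to_low and low_to_high groups alone, a block fit chosen after seeing the data, limma called 10 (7 higher and 3 lower). Over all 34383 regions that fit called 111 higher and 5 lower. High_to_high libraries share only a number with the others, with same-number correlations of -0.0407 to -0.00121.

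The day 9 difference from naive was 0.64 with a pseudocount of 5, 1.06 centred on the always-open regions, 1.20 for rises of at least 1.5, 1.13 on the scale of the rise (chosen after seeing the data) and 0.84 to 0.90 with 1 library left out. The difference from antigen-experienced cells was 0.0688 on the deposited scale, 0.65 for rises of at least 1.5 and 0.48 to 0.53 with 1 library left out. That from effector cells was -0.42 with a pseudocount of 5, -0.12 on the deposited scale, -0.68 for rises of at least 1.5 and -0.58 to -0.53 with 1 library left out. These 3 mean differences kept their sign in each alternative named, although without centring single libraries lay on either side of 0 against antigen-experienced cells (lowest -0.10, highest 0.34) and effector cells (-0.30 to 0.15). The balance of calls turned without centring, from 8 higher and 1 lower to 6 and 110 between YFP-high and YFP-low, and from 19 and 1 to 16 and 395 between high_to_high and low_to_low. No named region reversed its difference, but many changed in size. Under 4 other scalings the named rises stayed the same in 227 cases and moved in 229. The named day 9 differences stayed the same in 352 cases, were weaker in 111 and stronger in 6. Each reference group is 1 library, and weak peaks near the lowest called value limit the naive levels.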

Other observations

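Of the 16 rising regions that stood at least 2-fold above effector cells in every day 9 library, some lay at metabolic and surface protein genes. They were picked out after their values were seen and share the effector library with the rule. The region inside Suclg2, which encodes a subunit of succinyl-CoA ligase (chromosome 6, 95614555 to 95614949), held a normalized tag count of 4.93 in naive, 17.7 in antigen-experienced and 6.39 in effector cells and 35.0 to 58.4 at day 9. The region inside Dpp4, which encodes the surface peptidase CD26 (chromosome 2, 62331978 to 62332215), held 4.26, 8.73 and 6.2 and 16.8 to 32.4 at day 9. The region inside Slc5a1, a sodium-glucose transporter gene (chromosome 5, 33121967 to 33122284), held 4.4, 16.4 and 10.1 and 31.1 to 41.7. The region 60385 bp from Lrpap1, a receptor chaperone gene (chromosome 5, 35166084 to 35166314), started higher, with 17.3, 21.5 and 23.8, and held 58.5 to 93.7 at day 9. In all 4 the day 9 values lay above the 3 reference libraries.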
